A study of Mus musculus with 2 samples.

Results

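The motile cilium axoneme genes encode the parts of the beating cilium and the factors that switch those parts on. They were chosen by symbol: protein-coding genes named Dnah, Dnai, Dnali, Cfap, Rsph, Tekt or Drc with their family numbers, plus Foxj1, Mcidas, Gmnc, Ccdc153, Tmem212 and Pifo. This gave 70 genes of 43346 in the gene tables, 21474 of which are protein-coding. Cfap99 also fits the names and has no row in the tables used here. The members lie on 19 chromosomes.

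The tissue was embryonic day 18 central nervous system of the C57BL/6J mouse strain, with both sexes pooled, and polyadenylated RNA was sequenced. There is a single group of 2 libraries from separate biosamples, numbered replicate 1 and replicate 2, and the labels name no treatment and no altered allele. How many embryos each biosample held is not stated. Levels and the difference between these 2 libraries are therefore described without p-values. Replicate 1 had 93979836 fragments assigned to genes and replicate 2 had 137012773. Levels are given as TPM, a gene's share of all transcripts after correction for transcript length, so that genes can be set side by side. Neural progenitor markers were present, with all 10 radial glia genes at 1 TPM or more in both libraries.

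A motile cilium beats because dynein motors, arranged as outer and inner arms, slide the doublet microtubules of its shaft, the axoneme, against each other. Radial spokes, the nexin-dynein regulatory complex and the central apparatus keep the sliding in order, and tektins and other inner proteins line the doublets. In the brain such cilia are carried by ependymal cells, which line the ventricles and in mice mature largely after birth, and by cells of the choroid plexus. The transcription factor FOXJ1 and factors of the RFX family switch axoneme genes on, and the geminin relatives GMNC and multicilin start the programme in cells with many cilia.

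Of the 70 members, 41 (58.6%) reached 1 TPM in both libraries, against 62.9% of all protein-coding genes. The share detected was near that background. The members' median was 1.75 TPM in replicate 1 and 1.77 TPM in replicate 2, against 5.83 and 6.03 TPM over all protein-coding genes. The members were fewer at both ends of the scale: 10 members (14.3%) reached 10 TPM in both libraries, against 42.1% of protein-coding genes, and 5 (7.14%) averaged under 0.1 TPM, against 24.9%. Under 1 TPM in both libraries were 22 members (31.4%), against 34.8%. The members summed to 441 TPM in replicate 1 and 477 TPM in replicate 2. The 5 highest, Cfap20, Rsph9, Cfap36, Cfap298 and Rsph3a, held 53.7% of the sum in replicate 1 and 52.4% in replicate 2. In bulk tissue, fewer cells of a type and less RNA per cell cannot be told apart.

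**Figure D1:**
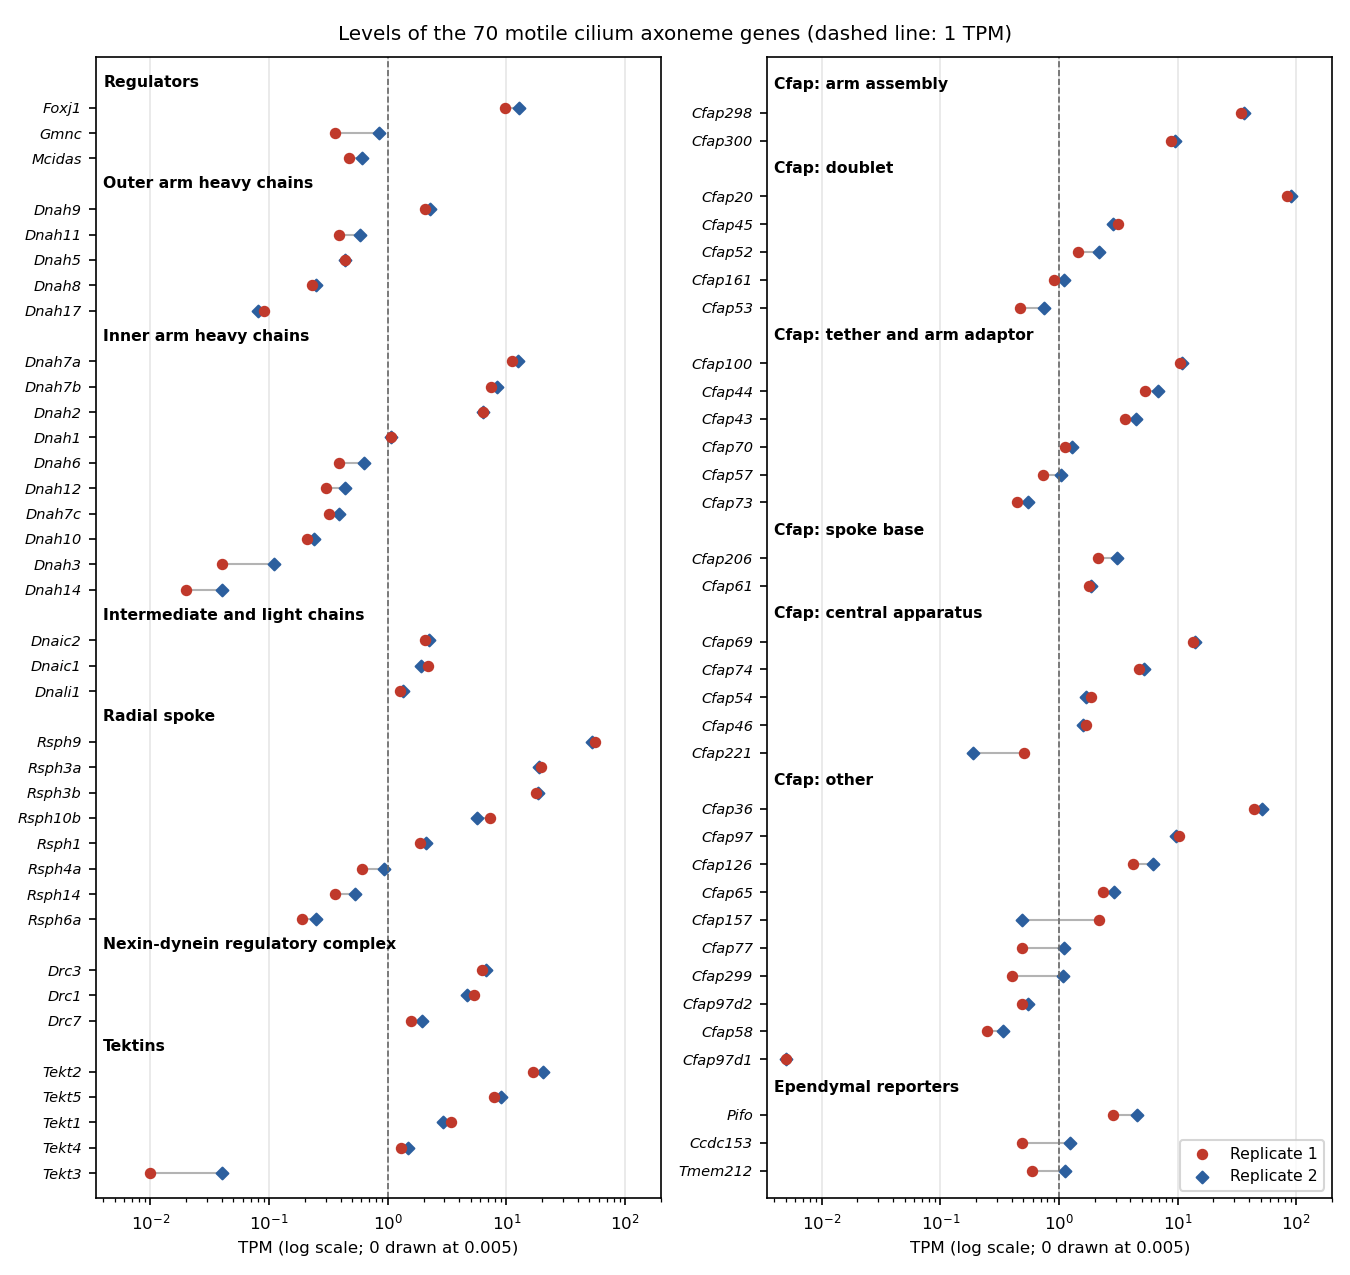
TPM of each of the 70 members on a log scale, grouped by role, with a circle for replicate 1 and a diamond for replicate 2. Cfap20 stood highest at 83.8 and 90.5 TPM, Cfap97d1 was at 0 in both libraries, and 10 of the 15 dynein heavy chain genes lay left of the dashed line at 1 TPM in both.

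The 3 regulators stood at different levels. Foxj1 (ENSMUSG00000034227, GRCm38 chr11:116330704-116335399) had 9.69 TPM in replicate 1 and 12.9 TPM in replicate 2. Mcidas, which encodes multicilin, had 0.47 and 0.61 TPM, on 61 and 119 fragments. Gmnc, which acts above multicilin, had 0.36 and 0.85 TPM, on 83 and 298 fragments. Foxj1 was the one regulator of the 3 that reached 1 TPM in both libraries. Of 19 further regulators of multiciliated cells that the tables hold, 16 were detected, led by Tfdp1 at 108 and 106 TPM and E2f4 at 54.3 and 52.5 TPM, which also act in the cell cycle. The 4 RFX genes among them stood at 23.0 and 18.9 TPM for Rfx1, 16.1 and 14.1 TPM for Rfx3, 8.02 and 9.30 TPM for Rfx4, and 2.38 and 2.77 TPM for Rfx2.

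The promoters of the members were searched for the sequences that RFX and forkhead factors are known to bind. RefSeq's promoter table (GRCm38.p6; 250 bases before to 50 after each start) held 58 members and 27025 genes in all. It has no entry for Cfap157, Cfap299, Cfap53, Cfap54, Cfap65, Cfap73, Cfap97, Dnah3, Foxj1, Rsph1, Rsph10b and Rsph4a. A gene counted if any of its windows held the motif, and the 58 members had 67 windows. The genes in all were not limited to protein-coding ones and were not matched to the members for windows per gene. The short RFX motif GTTGCC, on either strand, was in the promoters of 23 members (39.7%), against 14.1% of all genes. A spaced RFX motif, GTTNCC followed by 3 bases of any kind and GNAAC, can overlap the short one. It was in 6 members (10.3%), against 0.936% of all genes, and 4 of these 6 hold the short motif too. All 6 averaged 1 TPM or more, a level that 36 of the 58 searched members reached. A longer form, GTTGCC followed directly by ATGG and NAAC, was in no member and in 0.0851% of all genes, and the forkhead core TGTTTAC was in 4 members (6.9%), against 4.05% of all. A match is a description of letters and shows no binding. All 6 spaced motifs found in members are shown, and a link between motif and level was not tested. Each line reads along the gene's strand, with the motif in capitals and 8 bases on either side. In Cfap44, Cfap45 and Tekt4 the motif reads on the opposite strand only, so that the capitals are its reverse complement, and in the other 3 it reads on the gene's strand:
Cfap298, chr16:90935016-90935045, minus strand: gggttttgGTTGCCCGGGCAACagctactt
Cfap44, chr16:44394764-44394793, plus strand: ggagggacGTTGCTATGGCAACcgcagtaa
Cfap45, chr1:172521103-172521132, plus strand: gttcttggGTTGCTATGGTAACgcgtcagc
Cfap61, chr2:145934768-145934797, plus strand: gccgcgtcGTTTCCTTAGCAACtgtgtgcg
Pifo, chr3:106001496-106001525, minus strand: gcggttccGTTCCCTTGGCAACgtagtaca
Tekt4, chr17:25471582-25471611, plus strand: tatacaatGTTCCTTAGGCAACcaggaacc
Counted from -1 for the base before the start and 1 for the start itself, the motif runs between -188 and -175 in Cfap298, -27 and -14 in Cfap44, -19 and -6 in Cfap45, -8 and 6 in Cfap61, -20 and -7 in Pifo, and 1 and 14 in Tekt4. In 5 of the 6 it thus lies within 30 bases of the start. The whole windows of Cfap44, a tether of inner arm motors, and of Pifo, used as a reporter of ependymal cells, show the motif in its context:
Cfap44, chr16:44394549-44394848, plus strand: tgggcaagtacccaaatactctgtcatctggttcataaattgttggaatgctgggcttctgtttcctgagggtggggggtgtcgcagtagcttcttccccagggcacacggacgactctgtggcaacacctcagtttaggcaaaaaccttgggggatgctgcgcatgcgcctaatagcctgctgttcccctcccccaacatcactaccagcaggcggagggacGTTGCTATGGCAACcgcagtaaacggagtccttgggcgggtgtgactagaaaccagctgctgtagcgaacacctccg
Pifo, chr3:106001448-106001747, minus strand: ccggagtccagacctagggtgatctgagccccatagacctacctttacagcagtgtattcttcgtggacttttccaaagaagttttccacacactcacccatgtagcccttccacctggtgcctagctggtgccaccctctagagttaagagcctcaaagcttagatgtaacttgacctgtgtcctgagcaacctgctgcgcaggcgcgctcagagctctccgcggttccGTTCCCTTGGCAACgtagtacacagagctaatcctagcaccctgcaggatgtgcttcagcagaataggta

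**Figure D2:**
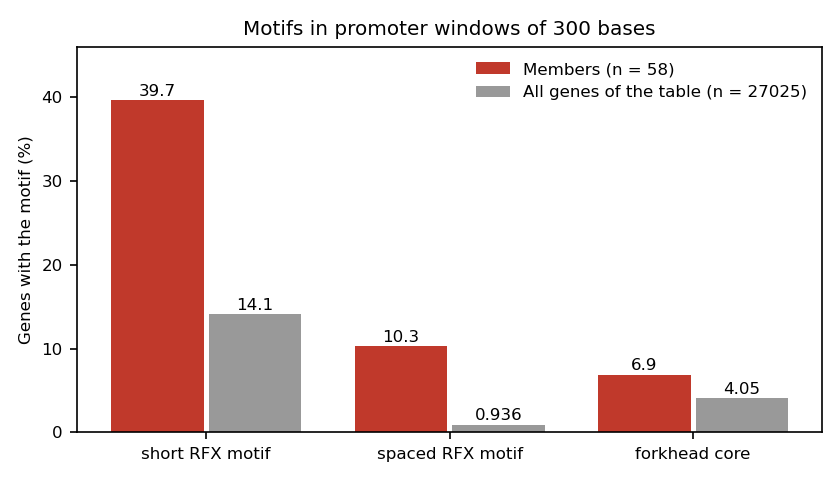
Share of genes, in percent, whose RefSeq promoter windows of 300 bases hold each motif on either strand, for 58 members (red, left bars) and all 27025 genes of the table (grey, right bars). The bars read 39.7% against 14.1% for the short RFX motif, 10.3% against 0.936% for the spaced one and 6.9% against 4.05% for the forkhead core.

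The outer arm heavy chain genes, which encode the motors that drive the beat, were low. Dnah9, a beta heavy chain, had 2.05 TPM in replicate 1 and 2.27 TPM in replicate 2 and was the one detected of 5. The coding transcripts of Dnah9 held 1.41 and 1.73 TPM. Of this, the 13798 nt Dnah9-201 had 0.48 and 0.58 TPM and the 6031 nt Dnah9-206 had 0.82 and 1.06 TPM. Dnah5, the gamma heavy chain, had 0.44 TPM in both libraries, on 402 and 609 fragments. Dnah11, the beta chain of the proximal arm, had 0.39 and 0.58 TPM, of which coding transcripts held 0.04 and 0.10 TPM and a nonsense-mediated decay transcript most of the rest. By gene TPM the sperm counterparts were lowest, with Dnah8 at 0.23 and 0.25 TPM and Dnah17 at 0.09 and 0.08 TPM. By coding transcripts Dnah11 was below Dnah8 in both libraries, and in replicate 1 below Dnah17, which had 0.07 and 0.06 TPM. The spermatid and testis markers were nearly absent, with 11 of 12 under 1 TPM in both libraries and 7 at 0, among them the protamine genes Prm1 and Prm2.

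Inner arm heavy chain genes spanned a wide range. By gene TPM, Dnah7a led with 11.1 TPM in replicate 1 and 12.4 TPM in replicate 2, followed by Dnah7b with 7.47 and 8.40 TPM and Dnah2, of the I1 arm, with 6.34 and 6.39 TPM. Dnah1 stood at 1.07 and 1.06 TPM. The other 6 of the 10 genes stayed under 1 TPM in both libraries, down to Dnah3 at 0.04 and 0.11 TPM and Dnah14 at 0.02 and 0.04 TPM. Dnah14 rested on 1 and 5 fragments. Dnah7a, Dnah7b and Dnah7c are close copies whose reads the authors' counting may split, so their single values are uncertain. Across outer and inner arms, 5 of 15 heavy chain genes (33.3%) reached 1 TPM in both libraries.

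The gene TPM of several heavy chains came mostly from short transcripts that are not annotated as coding. For Dnah7a, the protein-coding transcripts held 0.07 TPM in each library, or 0.633% and 0.564% of the gene's TPM. Nearly all the rest was the 732 nt processed transcript Dnah7a-202, at 10.99 and 12.3 TPM, against the 12245 nt coding transcript Dnah7a-201. For Dnah7b the coding share was 26.2% in replicate 1 and 25.8% in replicate 2, and its 12314 nt coding transcript had 1.96 and 2.17 TPM. For Dnah2 it was 42.1% and 39.9%, with 2.60 and 2.55 TPM for the 13704 nt transcript Dnah2-202. Counted by coding transcripts, Dnah2 therefore stood above Dnah7a, the reverse of the order by gene TPM. Short transcripts weigh more in TPM than in fragments. By fragments, the long coding transcript held most of Dnah7b, with 1417 of 1618 in replicate 1 and 2375 of 2721 in replicate 2. It also held most of Dnah2, with 2092 of 2401 and 3107 of 3484. For Dnah7a it held 52.3 of 400 and 79.2 of 674.

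Beyond the heavy chains, Cfap44 (29.0% in replicate 1 and 26.7% in replicate 2), Dnaic1 (38.99% and 35.9%) and Cfap43 (30.9% and 43.8%) also had under 50% of their TPM in coding transcripts. The value of Cfap43 includes a 3764 nt transcript, at 2.01 and 1.79 TPM, that GENCODE M21 gives to the neighbouring gene Itprip on the same strand. In all, 6 of the 43 members with a mean TPM of at least 1 were under 50% in both libraries, against 7.89% of 13806 protein-coding genes at that level. Cfap45 (44.7% and 74.8%) and Cfap157 (20.8% and 67.3%) were under it in replicate 1 alone. The median coding share was 84.7% and 92.2% over the 43 members, against 98.4% and 98.2% over all protein-coding genes at that level. By coding TPM alone, 36 of the 70 members were detected, against 61.5% of protein-coding genes.

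**Figure D3:**
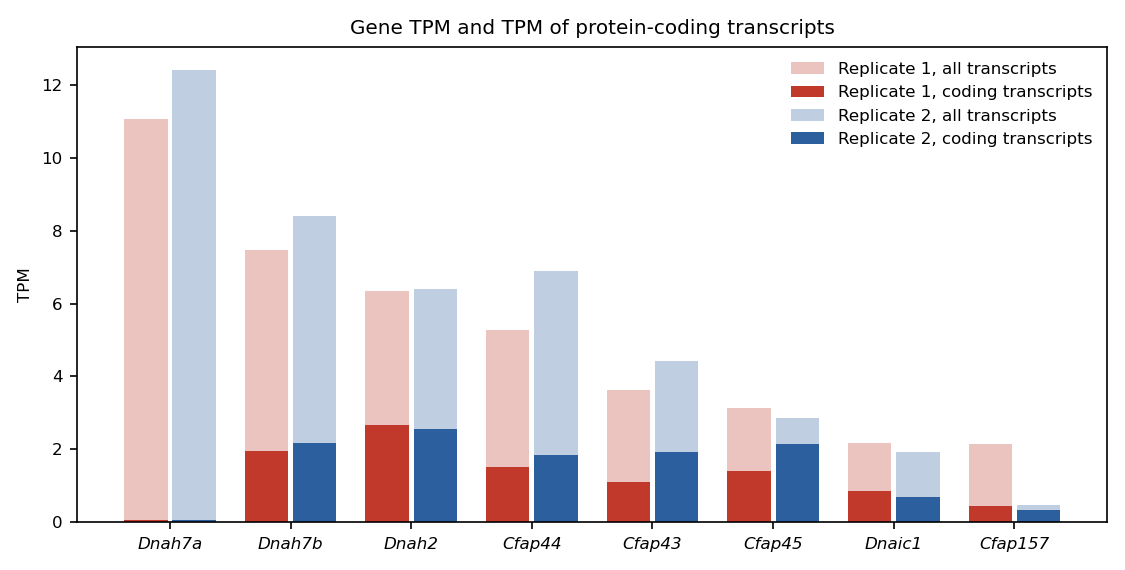
TPM of the 8 members whose protein-coding transcripts held under 50% of the gene's TPM in at least 1 library, from a mean gene TPM of 1. Pale bars give all transcripts and dark bars the coding ones, with replicate 1 (red) left of replicate 2 (blue), and the dark bar of Dnah7a is at 0.07 TPM in both.

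Reads across exon junctions, deposited on mm9 with Ensembl models, showed which parts of the members were spliced and present. Their columns R1 and R2 hold 2 replicates that no source ties to replicate 1 or 2, so they are summed or given by column name. Of 1580 introns in the models of 67 members, 1381 (87.4%) had at least 1 read, against 88.3% over protein-coding genes in the same files, 1125 had reads in both columns and 863 had at least 10 reads. Every intron was found for 31 members, and none for Cfap97d1. Of these counts, only the 87.4% was compared with protein-coding genes. The introns are those of 1 chosen model per gene. For some members, such as Dnah17 and Cfap74, that model is a transcript at 0 TPM in both libraries. The model of Cfap74 is a retained-intron transcript. In the 13 heavy chain genes with a model, 737 of 894 introns (82.4%) had a read. Even Dnah5, at 0.44 TPM, had reads on 70 of its 78 introns, while Dnah17 had them on 38 of 81 and Dnah3 on 33 of 60.

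Reads were unevenly spread along the heavy chain genes. In Dnah1, introns 1 to 58 had 0 to 6 reads each, with a median of 1.5, and summed to 51 reads in R1 and 53 in R2. From intron 59 to 77 the median was 82 reads, and the sums were 592 and 895, although intron 68 had 0. The 5′ stretch thus had a small fraction of the reads per intron of the 3′ stretch, in both columns. The 1.07 and 1.06 TPM by which Dnah1 counted as detected are for its single 12872 nt model. They do not show a full-length transcript at that level. In Dnah2 the median was 4 reads over introns 1 to 3, 85 over introns 4 to 39 and 26.5 over introns 40 to 85. These stretches were chosen after the reads by intron had been seen. Exon 3 of Dnah2, between introns 2 and 3, was skipped by 26 reads, 10 in R1 and 16 in R2 (16.1% included). The median over introns 1 to 3 does not count those reads.

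**Figure D4:**
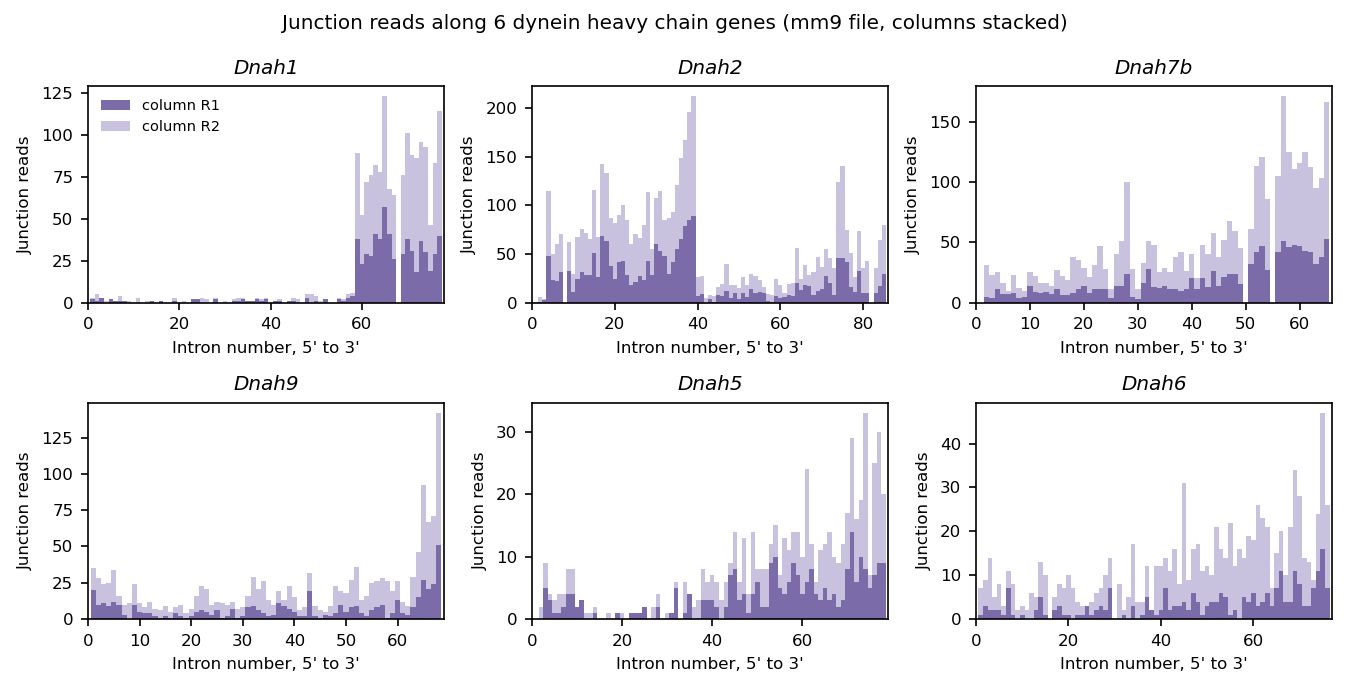
Junction reads per intron, numbered from the 5′ end, for 6 dynein heavy chain genes in the mm9 junction file, with column R1 (dark) and column R2 (pale) stacked. Dnah1 has 0 to 6 reads up to intron 58 and up to 123 after it, Dnah2 peaks at 212 reads before intron 40, and Dnah7b, Dnah5 and Dnah6 have more reads towards the 3′ end.

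Most long members had more reads towards the 3′ end, as did most long genes. The introns were divided into 3 equal parts, for genes with at least 9 introns and a nonzero median of reads in the 5′ part. This left out Dnah3 and Dnah17. Of the 35 members kept, 28 (80.0%) had a higher median in the 3′ part, against 77.5% of 7260 protein-coding genes. At least 2-fold higher were 17 members (48.6%), against 30.9%. The median ratio of the 3′ over the 5′ part was 1.91 over the members and 1.51 over the protein-coding genes. The protein-coding genes were not matched to the members for intron number, transcript length or reads. The part of these in the difference was not tested. For Dnah5 the medians were 13.5 reads in the 3′ part and 1 in the 5′ part, and for Dnah7b 103 and 22. Drc7 was an exception, with 20 reads in the 3′ part and 59 in the 5′ part. A level of a long member by junction reads therefore depends on the part of the gene that is read.

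Some members were spliced in more than 1 way. Among 471 internal exons with at least 20 reads and flanking junctions within 2-fold of each other, 33 exons (7.01%) in 16 members were included in 5% to 95% of the reads, against 3.59% of 105180 such exons of protein-coding genes. The shares were not matched for reads per exon, and at few reads 2 skipping reads can place an exon in this range. Dnah9 exon 2 (94.1%), for example, had 0 skipping reads in R1 and 2 in R2. The difference between the shares may thus partly reflect depth, which was not tested. Tekt1, a tektin of the doublet wall, had 42 and 56 reads on the junctions into and out of its exon 5 and 50 reads that skipped it, 25 in each column. The exon was thus included in 49.5% (95% exact binomial interval 39.3% to 59.7%, counting error only). Cfap100, a modifier of inner arms in Chlamydomonas, had 42 and 29 reads on the junctions of its exon 3 and 98 reads that skipped it, 41 in R1 and 57 in R2. That exon was included in 26.9% (19.6% to 35.2%). Neither skipping junction is in the Ensembl models of the file, and the lengths of both exons, 144 and 81 nt, are multiples of 3. Other partly included exons were Cfap44 exon 22 (34.8%), whose skipping is annotated, Drc1 exon 2 (55.6%) and Cfap300 exon 6 (77.3%), and the lengths of these 3 are no multiples of 3. The exons of Tekt1 and Cfap100 are shown because they are left out of a large part of the transcripts. They are from GENCODE M21 transcripts on GRCm38, coding over their whole length, in capitals with 15 bases of each neighbour exon:
Tekt1 exon 5, chr11:72354699-72354842, minus strand: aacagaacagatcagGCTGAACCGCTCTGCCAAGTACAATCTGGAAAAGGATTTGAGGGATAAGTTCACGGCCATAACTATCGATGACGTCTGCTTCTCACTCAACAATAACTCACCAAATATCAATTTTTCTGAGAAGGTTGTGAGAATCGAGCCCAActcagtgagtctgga
Cfap100 exon 3, chr6:90419376-90419456, minus strand: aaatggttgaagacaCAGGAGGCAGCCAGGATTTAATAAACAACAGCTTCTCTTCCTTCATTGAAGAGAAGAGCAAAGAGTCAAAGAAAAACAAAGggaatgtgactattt

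By gene TPM all 3 intermediate and light chain genes were detected. Dnaic2 had 2.06 TPM in replicate 1 and 2.23 TPM in replicate 2, and Dnaic1 2.18 and 1.92 TPM. Both encode intermediate chains of the outer arm. Dnali1, a light intermediate chain of inner arms, had 1.26 and 1.34 TPM, the lowest by gene TPM. By coding transcripts Dnaic1 was lower, at 0.85 and 0.69 TPM, and under 1 TPM. Of 11 further small and light chain genes, 8 were detected, led by Dynll1 at 742 and 726 TPM and Dynlt1b at 623 and 533 TPM, which cytoplasmic dynein uses too.

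Radial spoke genes held 3 of the 7 highest mean levels of the set. Rsph9, of the spoke head, had 55.9 TPM in replicate 1 and 52.6 TPM in replicate 2. The stalk genes Rsph3a and Rsph3b had 19.4 and 18.96 TPM and 17.7 and 18.5 TPM. They are near-identical copies on chromosome 17 that may share reads, so the split between them is uncertain. Rsph10b had 7.25 and 5.69 TPM, with exons that overlap Pms2 on the same strand. Rsph1 had 1.88 and 2.11 TPM. The head gene Rsph4a, at 0.61 and 0.93 TPM, and Rsph14, at 0.36 and 0.53 TPM, stayed under 1 TPM, and Rsph6a, the testis counterpart of Rsph4a, was lowest at 0.19 and 0.25 TPM. Head genes thus differed from each other far more than the libraries did.

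All 3 nexin-dynein regulatory complex genes with a Drc symbol were detected. Drc3 had 6.20 TPM in replicate 1 and 6.74 TPM in replicate 2, the scaffold gene Drc1 5.35 and 4.66 TPM, and Drc7 1.58 and 1.94 TPM. Of the 5 tektins, Tekt2 led with 16.7 and 20.5 TPM. Tekt5 had 7.90 and 8.93 TPM, Tekt1 3.42 and 2.92 TPM and Tekt4 1.30 and 1.48 TPM. Tekt3 was at 0.01 and 0.04 TPM, on 1 and 5 fragments. The tektins were thus detected but for Tekt3.

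The Cfap genes, named for cilia and flagella associated proteins, made up 30 of the 70 members, and 19 of them were detected. Both assembly genes were high, with Cfap298 at 34.1 TPM in replicate 1 and 36.4 TPM in replicate 2 and Cfap300 at 8.88 and 9.59 TPM. Among genes of the doublet, Cfap20, which sits at the inner junction, had 83.8 and 90.5 TPM. The inner proteins Cfap45 (3.13 and 2.86 TPM), Cfap52 (1.45 and 2.16 TPM) and Cfap161 (0.90 and 1.10 TPM) were much lower, and Cfap53 was lowest at 0.47 and 0.75 TPM. Cfap20 alone exceeded the other 4 doublet genes together in each library.

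Tether and arm genes, whose roles are known from algae and ciliates, reached lower levels than Cfap20. Cfap100 had 10.5 TPM in replicate 1 and 10.98 TPM in replicate 2, Cfap44 5.27 and 6.90 TPM, Cfap43 3.62 and 4.43 TPM and Cfap70 1.13 and 1.30 TPM. Cfap73 was lowest at 0.44 and 0.55 TPM. The genes at the spoke base, Cfap206 at 2.15 and 3.07 TPM and Cfap61 at 1.80 and 1.85 TPM, were both detected. Genes of the central apparatus were led by Cfap69, with 13.4 and 14.0 TPM. Cfap74 had 4.77 and 5.24 TPM, Cfap54 1.87 and 1.69 TPM and Cfap46 1.69 and 1.58 TPM, and Cfap221 was lowest at 0.51 and 0.19 TPM. These are values by gene TPM. By coding transcripts Cfap46 (0.92 and 0.90 TPM) and Cfap70 (0.66 and 0.81 TPM) were under 1 TPM in both libraries. Cfap54 (0.98 and 1.20 TPM) was under it in replicate 1.

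Among the other Cfap genes, Cfap36 had 43.6 TPM in replicate 1 and 51.1 TPM in replicate 2, and Cfap97 10.3 and 9.70 TPM. Cfap126 (Flattop, of the basal body) had 4.23 and 6.23 TPM and Cfap65 2.35 and 2.89 TPM. Cfap157 had 2.16 and 0.49 TPM, but 48 and 47 fragments. Most of that difference lay in a 269 nt retained-intron transcript at 1.71 and 0.15 TPM, on 7 fragments in replicate 1, while its coding transcript had 0.45 and 0.33 TPM. Cfap97d1 had no fragment in either library, which allows up to 0.0319 CPM (counts scaled to library size) in replicate 1 and 0.0219 CPM in replicate 2 (3 fragments, counting error only).

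The 3 ependymal reporters were low. Pifo had 2.87 TPM in replicate 1 and 4.54 TPM in replicate 2, Ccdc153 0.49 and 1.24 TPM, and Tmem212 0.59 and 1.13 TPM. The last 2 were close, with Tmem212 lowest in replicate 2 and Ccdc153 in replicate 1. All 3 were lower in replicate 1. Around the members, other genes of the axoneme were also detected in part. Of 14 genes in the list of dynein assembly factors, 10 were detected. Its highest was Tbc1d31, known from centriolar satellites and not as an assembly factor, at 11.7 and 13.2 TPM, followed by Lrrc56 at 11.1 and 10.3 TPM and Spag1 at 9.48 and 10.7 TPM. Of 5 outer arm docking genes, 3 were, led by Efcab1 at 6.59 and 7.69 TPM. Of 14 genes in a list of central pair, ruler and further regulatory complex genes, 7 were, led by Gas8, a subunit of the nexin-dynein regulatory complex, at 39.98 and 36.4 TPM and Spef1 at 24.9 and 26.2 TPM, while Hydin, of the central pair, had 0.19 and 0.30 TPM. In that list Iqca (0.21 and 0.34 TPM) and Tcte1 (0.78 and 0.76 TPM), also of the regulatory complex, stayed under 1 TPM. Of 33 other motile cilium genes, 24 were detected, led by Tppp3 at 80.1 and 127 TPM and Morn2 at 25.4 and 18.8 TPM.

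Between the libraries, most members were lower in replicate 1 than in replicate 2, by small amounts. Ratios are replicate 1 over replicate 2, of CPM scaled by TMM, for the 43 members with a mean TPM of at least 1, and have no replicate check. Of these, 32 (74.4%) were lower in replicate 1, against 46.7% of 13806 protein-coding genes at that level. The median log2 ratio was -0.17, or 0.891-fold, against 0.01 for the protein-coding genes. Foxj1 had 1400 fragments in replicate 1 and 2812 in replicate 2, a ratio of 0.753 (95% counting interval 0.706 to 0.803). Dnah9 had 713 and 1337 fragments (0.807), Tekt2 925 and 1738 (0.805) and Cfap20 5456 and 8939 (0.923). Drc1, with 729 and 962 fragments (1.15, interval 1.04 to 1.26), was higher in replicate 1. Rsph9, with 2459 and 3542 fragments, had a ratio of 1.05 whose interval of 0.997 to 1.11 spans 1.

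Few members differed by much. At least 1.5-fold lower in replicate 1 were 2 of the 43, against 2.75% of protein-coding genes: Pifo, with 121 fragments in replicate 1 and 291 in replicate 2 (0.63, interval 0.504 to 0.780), and Cfap126, with 157 and 367 (0.648, 0.533 to 0.782). At least 1.5-fold higher was 1, Cfap157 (1.53, 1.01 to 2.36), against 1.57%. Cfap157 had 48 and 47 fragments and passed the filter on mean TPM only through replicate 1, at 2.16 against 0.49 TPM. Its call is thus not independent of that filter. None was 2-fold lower, against 1.48%, or 2-fold higher, against 0.71%. These calls depended on the scale. By TPM with a pseudocount of 1, Pifo and Cfap126 were under 1.5-fold and Cfap157 was past 2-fold higher, and with a prior count of 5 or total counts as scaling Cfap157 was under 1.5-fold. With no filter on level, 56 of the 69 members with a fragment (81.2%) were lower in replicate 1, against 49.90% of 18249 protein-coding genes. At least 2-fold lower were 6 members, all under a mean of 1 TPM, against 1040 of those genes. Cfap299 had 12 and 49 fragments (0.385, interval 0.179 to 0.706), Ccdc153 26 and 99 (0.404, 0.247 to 0.617), Dnah3 31 and 116 (0.410, 0.263 to 0.605) and Gmnc 83 and 298 (0.424, 0.326 to 0.539). Tekt3 and Dnah14, with 1 and 5 fragments each, were the other two. Among other low members, Dnah5 (0.998), Dnah17 (1.04), Cfap221 (1.05) and Dnah8 (0.933) had intervals that span 1. Those of Cfap221 (0.648 to 1.69) and Dnah17 (0.724 to 1.48) are wide, so that equal levels are not shown. These low members were named after their values were seen.

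Markers of other tissues also differed between the libraries. Of the choroid plexus markers at a mean TPM of at least 1, 10 of 10 were lower in replicate 1, with a median of 0.516-fold and summed levels of 488 TPM in replicate 1 and 1488 TPM in replicate 2 over the 14 genes of the list. Most of both sums was the choroid plexus gene Ttr, at 427 and 1389 TPM. Folr1, a folate receptor of that epithelium, had 5.12 and 14.9 TPM. Of the ependyma markers, 8 of 10 were lower in replicate 1, of the other motile cilium genes 19 of 25 and of the dynein assembly factors 8 of 11. Radial glia markers had 6 of 10 lower, multiciliogenesis regulators 8 of 16 and small and light chains of axonemal dynein 3 of 8. The 12 genes of the ependyma list, 3 of them members, summed to 6040 TPM in replicate 1 and 5623 TPM in replicate 2, most of it Nnat, and no gene of either list was at 0 in both libraries.

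Markers of airway and nasal lining, another ciliated tissue, went the other way. Of these, 5 of 6 were higher in replicate 1, and the 18 genes of the list summed to 107 TPM in replicate 1 and 14.6 TPM in replicate 2. In replicate 1 most of the sum was Krt8, at 48.6 and 1.23 TPM, and Krt18, at 24.2 and 1.17 TPM, keratins that many simple epithelia express. In replicate 2 most of it was Nkx2-1, at 15.3 and 9.04 TPM, which the ventral forebrain expresses too. Defining secretory markers were low, with Scgb1a1 at 0.85 and 0 TPM, Bpifa1 at 1.06 and 0.09 TPM and Muc5b at 0.01 and 0 TPM. Cldn4 (9.21 and 0.09 TPM), Epcam (4.16 and 0.70 TPM) and Krt5 (0.79 and 0.06 TPM) were also higher in replicate 1, while Foxa1 (1.02 and 1.26 TPM) was lower. By TPM, 13 of the 18 genes were higher in replicate 1 and 5 lower. Stratified epithelium markers were higher in replicate 1 for 10 of 10, with sums of 140 and 28.3 TPM, and skeletal muscle markers lower for 10 of 10, with sums of 14.4 and 611 TPM. Of the 10 stratified genes, 6 were at least 1.5-fold higher. These counts and that of the airway list keep genes at a mean TPM of at least 1. Several genes passed only through the library where they were high, such as Krt6a (32.9 and 0.03 TPM), Ckm (0.23 and 94.4 TPM) and Cldn4. The counts are thus not independent of that filter. The part of choroid plexus, ependyma or epithelium in the members' levels and ratios was not tested.

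**Figure D5:**
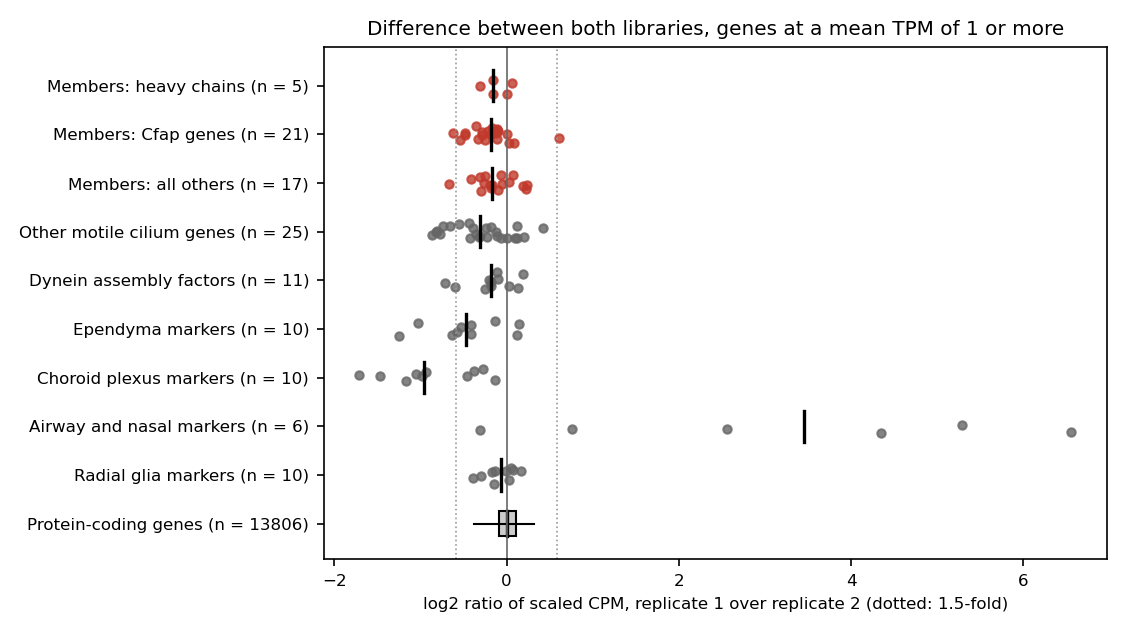
Log2 ratio of scaled CPM, replicate 1 over replicate 2, for members (red) and genes of other lists (grey) at a mean TPM of 1 or more, 1 point per gene, with a black line at each median. The bottom row gives 13806 protein-coding genes as median, quartiles (box) and 5th to 95th percentile (line). The members' points gather left of 0, with a median of -0.17 over all 43, and the choroid plexus markers lie farther left.

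On mm9, where the authors deposited other gene values labelled RPKM, the members were lower on the scale. In these values 13 of 67 members reached 1 in both replicate columns, against 47.7% of 20175 protein-coding genes. The scale itself was lower, since the median ratio of TPM to RPKM was 8.98 over 42 members and 8.07 over 13599 protein-coding genes with a mean TPM of at least 1. A limit of 1 is thus a stricter one there than in TPM.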

How the data were processed

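Libraries were stranded pairs of reads from ribosome-depleted polyadenylated RNA, per the labels. For each library the authors deposited tables for genes and for transcripts on mm10 that hold expected counts, TPM and FPKM, with GENCODE M4 gene models per the deposited read-me texts. The interval bounds of TPM deposited beside them are a score with no stated level and are not printed. The mm9 files deposited for the series give junction read counts and gene values labelled RPKM for 2 replicates that are not tied to a library. The aligner was not given in the sources used here, nor was the counter. Rows that are no gene were left out (3.62% of counts in replicate 1 and 4.01% in replicate 2).

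Members, lists and roles were chosen with earlier results of these data known. Symbols and coding types came from GENCODE M21 on GRCm38. Members are named by role: in each class those with a mean TPM of at least 1, up to the 6 highest, the lowest, and any at 0, then those past 2-fold and those with under 50% of TPM in coding transcripts, and the 2 to 4 highest of other pathway lists. Expected counts were rounded and scaled by TMM (edgeR 4.0.16, R 4.3.3) with a prior count of 1, and the code was tested on simulated data. DESeq2 1.42.0 size factors were an alternative. Python 3.11.15, pandas 2.3.3 and SciPy 1.17.1 did the rest. Gaps under 30 nt in mm9 gene models were joined, a choice made after seeing the data. Exons of 3 members overlap another gene on the same strand, and those of 26 members on the opposite strand. Intervals and floors cover counting error only.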

Additional observations from a re-analysis of the deposited data

How the results depend on the processing

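The 41 detected members (58.6%, against 62.9% of protein-coding genes) became 45 (64.3% against 66.5%) at 0.5 TPM, 30 (42.9% against 58.8%) at 2 TPM, 35 of 70 (against 60.1%) by FPKM, 36 (51.4% against 61.5%) by coding transcripts and 13 by mm9 RPKM. They were 42 without replicate 2 (60.0% against 63.7%) and 47 without replicate 1 (67.1% against 64.4%), the one setting of these in which the members' share was the higher. The median level of 1.77 TPM became 1.103 as FPKM, 2.038 with TPM rescaled over protein-coding genes and 1.078 by coding transcripts, and was 1.77 without replicate 1 and 1.745 without replicate 2. The median over protein-coding genes was above the members' in each of these. The median log2 ratio of -0.17 ran from -0.25 with no filter on level to -0.10 in TPM with a pseudocount of 1, and was -0.18 without the 8 members of low coding share, an alternative chosen after seeing the data. With total counts alone as scaling, 36 of 43 members were lower in replicate 1, against 62.65% of protein-coding genes. With a filter at 0.5 TPM, which keeps 54 members, 10 in place of 2 were at least 1.5-fold lower in replicate 1, against 3.77% of protein-coding genes, and 3 in place of 0 were 2-fold lower, against 1.96%. With a prior count of 5, 0 in place of 1 was 1.5-fold higher. Asking for 10 reads left 863 of 1381 introns. The motif counts of 23 for the short RFX motif, 6 for the spaced and 0 for the longer one differ by construction. Ratios have no value without a replicate. No paired analysis was possible because there is 1 group. Low members rest on few fragments, such as 1 and 5 for Tekt3, and their levels and ratios are imprecise.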
